A study of Mus musculus with 6 samples.

Results

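The numbered Zfp genes are mouse zinc finger genes whose symbol is Zfp followed by exactly 3 digits. Their RNA was measured in C8D1A cells, a cloned mouse astrocyte line, given pulsed radiofrequency (PRF, short bursts of high-frequency current) or no treatment. A probe was taken as a member when the transcript it was designed for carried such a symbol in RefSeq, so members were chosen by name and no measured value entered the rule. The family itself was proposed with results of this contrast known (its fall in PRF cells), and its counts and medians are given as descriptions. It held 440 of the 56605 probes on the array, for 295 of 22911 named genes. A further 27 of the 322 mouse genes with such a symbol had no probe by this match.

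There were 3 arrays of PRF-treated cells and 3 arrays of untreated control cells, and the design gives 3 independent experiments. Both groups were of the same line, grown in serum and moved to serum-free medium before use. How PRF was set, how long it lasted and how soon RNA was taken are not stated in the labels. The line is a single clone in culture, and p-values below measure the spread between these 3 experiments.

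C2H2 zinc finger proteins bind DNA, or in some cases RNA, through tandem fingers that each hold a zinc ion. Many of those numbered Zfp in mouse also carry a KRAB domain, which recruits the corepressor TRIM28 and with it histone methylation that silences retroelements and some genes. Such genes arose by repeated duplication and lie in clusters on several mouse chromosomes, so close paralogs share much of their sequence. Others in the family have no KRAB domain and act as activators, developmental regulators or RNA-associated factors.

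All 6 arrays were on 1 slide, and the 75th percentile of the processed signal was 634, 544 and 553 on the PRF arrays and 675, 635 and 598 on the control arrays. Levels below are log2 signal minus that percentile, so 0 is the 75th percentile of an array and a difference of 1 is a doubling of signal. The number of probes well above background was 35145 to 36191 on the PRF arrays and 33670 to 34642 on the control arrays. Of 10 astrocyte markers, 8 were measured and S100b was bright, but the defining markers Slc1a3 and Gja1 were above background on no array, and Gfap had a level of only -2.68 in PRF cells and -2.76 in control cells. The oligodendrocyte lineage marker Sox10 was bright in both groups, at a mean level of 5.84 on PRF arrays and 6.20 on control arrays. Summed microglial marker signal, relative to the 75th percentile, was 13.2 to 17.9 on PRF arrays and 8.86 to 9.27 on control arrays, with Aif1, Cx3cr1 and P2ry12 above background on none. Of the 3 microglial markers tested, Itgam was higher (a level of 3.92 in PRF cells and 3.07 in control cells), while Tmem119 (-0.25) and Csf1r (0.16) did not pass. The summed astrocyte markers spanned 68.3 to 71.9 on PRF arrays and 60.7 to 66.4 on control arrays. Neuronal markers summed to 23.8 to 28.3 on PRF arrays and 22.7 to 25.6 on control arrays, and fibroblast markers to 2.41 to 2.80 on PRF arrays and 2.72 to 3.0 on control arrays. Of the 4 fibroblast markers tested, Col1a2 (2.72) and Col1a1 (0.44) were higher, Pdgfrb (-0.32) was lower, and Dcn (0.34) did not pass. The part of these shifts in the Zfp values was not tested.

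In the PRF cells more numbered Zfp genes passed the test as lower than as higher. Of the 269 genes tested, 102 passed the test as lower and 23 as higher, with 144 past neither side (limma, Benjamini-Hochberg adjusted p below 0.05 over all probes). Across all 15069 genes tested, 13.4% were called lower and 16.4% higher. The share of Zfp genes called lower was 37.9% and the share called higher was 8.55%. Because the family was proposed with this contrast in view, nothing is read from these shares beyond their size.

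A gene was tested if all 3 arrays of 1 group or the other detected its probe well above background, which 269 of the 295 Zfp genes met (91.2%, against 65.8% of all named genes). The 26 left out did not meet this rule and include Zfp423, a regulator of adipocyte commitment and cerebellar development, and Zfp750, an epidermal differentiation factor. Each gene was represented by its brightest probe. Of the tested genes, 264 were well above background on all 6 arrays, 3 were tested only because of the PRF arrays and 2 only because of the control arrays. The direction of those 5 follows from the group that let them in. With only the 264 tested, 102 were lower and 21 higher. No Zfp probe was saturated.

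The median change of the 269 genes was -0.21 on the log2 scale, PRF minus control, with quartiles of -0.50 and -0.02. The median over all tested genes was -0.01, with quartiles of -0.17 and 0.17. Of the Zfp genes, 209 (77.7%) had a negative change, against 51.0% of all genes. In 143 Zfp genes the 3 PRF arrays all lay below the 3 control arrays, and in 34 all lay above. Over all genes those shares were 25.4% and 25.7%.

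The falls were moderate in size. Among the 102 genes called lower the median change was -0.56, and 47 fell by at least 1.5-fold and 7 by at least 2-fold, where Zfp456 (below background on the PRF arrays) is counted by a fitted value that is no bound. Across all genes, 3.23% were called lower by at least 1.5-fold and 0.518% by at least 2-fold. Among the 23 called higher the median was 0.58, and 11 rose by at least 1.5-fold and 6 by at least 2-fold. For all genes these shares were 11.5% and 8.06%.

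The shift was present on each array. The median level of the tested Zfp genes was -0.12, -0.05 and 0.07 on PRF arrays 1 to 3 and 0.18, 0.21 and 0.25 on the control arrays. The groups did not overlap, with the lowest median on PRF array 1 and the PRF median nearest to the controls on array 3. The median over all genes was 0.80, 0.81 and 0.84 on the PRF arrays and 0.85, 0.89 and 0.91 on the control arrays. In bulk RNA, fewer cells that express a gene and less RNA per cell cannot be told apart.

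The same array stood farthest from the controls for most of the genes called lower. PRF array 1 was the farthest from the controls for 82 of the 102 genes called lower, and PRF array 3 the nearest for 91. For the 23 genes called higher, array 1 was the farthest for 11 and array 3 the nearest for 16. This order was not counted over all genes, so it is not shown to be particular to the family. The median over all genes had the same order on PRF arrays 1 to 3, at 0.80, 0.81 and 0.84. The count of genes called lower was 109 without PRF array 3, 71 without PRF array 1 and 61 without PRF array 2. It was 61 without control array 2 and 60 without control array 3.

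The strongest fall past the test was that of Zfp493. Its level was -2.03, -1.84 and -1.56 on the PRF arrays and -0.35, -0.13 and -0.22 on the control arrays. The PRF arrays lay far below every control array, a 2.98-fold difference (log2 change -1.58 ± 0.13 SE, limma adjusted p = 5.11e-04). A second Zfp493 probe for the same transcript gave -0.01 (limma adjusted p = 0.918), so the fall rested on 1 of 2 probes.

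Zfp839 had levels of -4.14, -4.10 and -3.70 on the PRF arrays and -2.67, -2.57 and -2.77 on the control arrays. This is a change of -1.31 ± 0.13 SE (limma adjusted p = 0.00109), 2.48-fold, with no overlap. Zfp953 had levels of -2.32, -2.16 and -1.87 on the PRF arrays and -0.99, -0.76 and -0.80 on the control arrays. Again the groups were well apart, and the change was -1.27 ± 0.13 SE (limma adjusted p = 0.00118). Neither gene had a second probe.

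Zfp799 had levels of -3.05, -2.85 and -2.20 on the PRF arrays and -1.59, -1.43 and -1.49 on the control arrays, a change of -1.20 (limma adjusted p = 0.0085). Its dimmer second probe also fell, by 0.83 on the log2 scale (limma adjusted p = 0.0122). The spread among PRF arrays was wide here, with an SD of 0.45 against 0.08 among control arrays, but no values crossed. Zfp661 had levels of -1.02, -0.85 and -0.56 on the PRF arrays and 0.12, 0.17 and 0.34 on the control arrays, a change of -1.02 (limma adjusted p = 0.00255).

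Zfp563 had levels of -3.62, -3.09 and -2.94 on the PRF arrays and -2.26, -2.15 and -2.22 on the control arrays. Its signal was 2.01-fold lower in PRF cells (limma adjusted p = 0.00747), with little spread among the controls. Zfp454 had levels of -1.40, -1.50 and -1.13 on the PRF arrays and -0.45, -0.44 and -0.35 on the control arrays, with tight controls and a change of -0.93 (limma adjusted p = 0.00173). Zfp455 had levels of -3.09, -2.85 and -2.40 on the PRF arrays and -1.90, -1.76 and -1.94 on the control arrays. Its change was -0.92 (limma adjusted p = 0.0106), and all 3 genes had groups that did not overlap.

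The remaining strong falls were those of Zfp882 (-0.85), Zfp763 (-0.80) and Zfp870 (-0.79), with limma adjusted p-values of 0.00714, 0.00784 and 0.0068. Both probes of Zfp882 and both probes of Zfp870 were lower. Zfp786 (-0.90, limma adjusted p = 0.0404) and Zfp958 (-0.78, limma adjusted p = 0.018) were less secure. Zfp786 lost its call when any array but PRF array 3 was left out (adjusted p = 0.0867 to 0.121), and Zfp958 when control array 3 or PRF array 2 was left out. Zfp456 was detected above background on none of the PRF arrays and on each control array (at least 1.52-fold lower). It was tested only through the control arrays, which fixes its direction, so the bound is a description. Such a bound sets the mean of the detected group against the dimmest detected signal of each other array, or the probe's own signal where that was higher.

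The lowest change of all belonged to Zfp759, which did not pass the test and is named after its values were seen. Its levels were -7.25, -4.72 and -5.17 on the PRF arrays and -4.04, -3.87 and -4.02 on the control arrays. All PRF values were below all control values, but their SD was 1.35 and the limma adjusted p was 0.0803.

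**Figure D1:**
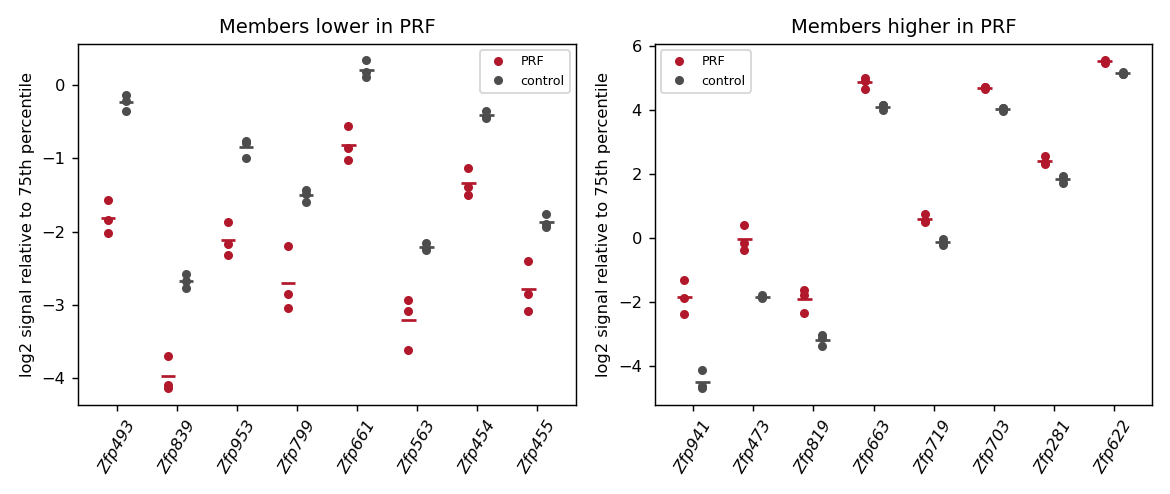
Level on each array (log2 signal relative to the 75th percentile, vertical axis) of Zfp genes that passed the test as lower (left panel) and as higher (right panel), with a point per array, a bar at each group's mean, and PRF left of control. In each gene shown the 3 PRF points lie wholly on 1 side of the 3 control points, with the fall of Zfp493 at -1.58 and the rise of Zfp473 at 1.80 on the log2 scale.

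The rises were fewer and some were larger than any fall. Zfp647 was detected above background on each PRF array and on none of the control arrays, and was at least 10.3-fold higher. Zfp612 was at least 2.66-fold higher and Zfp618, whose product is known to bind UHRF2, at least 2.22-fold higher. Neither was above background on any control array. All 3 were tested only through the PRF arrays, which fixes their direction, so these bounds are descriptions.

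Zfp941 had levels of -1.32, -1.90 and -2.37 on the PRF arrays and -4.62, -4.71 and -4.14 on the control arrays, a 6.19-fold rise (log2 change 2.63 ± 0.28 SE, limma adjusted p = 0.00134). Zfp473, whose human counterpart ZNF473 takes part in processing histone pre-mRNA, had levels of 0.42, -0.16 and -0.37 on the PRF arrays and -1.83, -1.88 and -1.79 on the control arrays. It rose 3.48-fold (log2 change 1.80 ± 0.20 SE, limma adjusted p = 0.00137), and its control arrays lay within 0.1 of one another. Zfp819, which is known from early embryos and stem cells, had levels of -1.62, -1.79 and -2.35 on the PRF arrays and -3.14, -3.37 and -3.03 on the control arrays. Its change was 1.26 (limma adjusted p = 0.00542). In all 3 genes PRF array 1 was the highest and PRF array 3 the lowest of the treated arrays.

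Among brighter genes, Zfp663 had levels of 5.01, 4.90 and 4.66 on the PRF arrays and 4.16, 3.99 and 4.14 on the control arrays (change 0.76, limma adjusted p = 0.00351). Zfp703, a transcriptional corepressor amplified in human breast cancer, had levels of 4.70, 4.72 and 4.64 on the PRF arrays and 4.05, 4.06 and 3.97 on the control arrays. Both groups were tight, with SDs of 0.04 among PRF arrays and 0.05 among control arrays, and the change was 0.66 (limma adjusted p = 8.82e-04). Zfp719 rose by 0.73 (limma adjusted p = 0.0027) on 1 probe, while its other probe gave -0.10. Zfp366, known from dendritic cells, rose by 0.98 (limma adjusted p = 0.044), a call lost without any 1 of 4 arrays at adjusted p-values of 0.100 to 0.121, and also with no scaling, quantile or spike-in scaling.

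Of the 5 Zfp genes with the brightest probes, 1 passed the test. Zfp628 had levels of 7.57, 7.88 and 7.69 on the PRF arrays and 7.76, 7.84 and 7.91 on the control arrays, which overlap (limma adjusted p = 0.372). Zfp207, a spindle-assembly factor, had a change of 0.00 on its brightest probe (limma adjusted p = 0.991) and of 0.13 and 0.47 on its other probes, of which the last passed (limma adjusted p = 0.0437). Zfp408 did not pass on either of its probes (limma adjusted p = 0.427 for the brightest). Zfp937 did not pass on its brightest probe (0.22, limma adjusted p = 0.201), but its other probe was lower, at -0.55 (limma adjusted p = 0.0181). Zfp658 did, with a change of 0.46 (limma adjusted p = 0.0239), but it lost the call in 4 of the fits without 1 array and with no scaling or spike-in scaling.

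The falls were most frequent among Zfp genes of middling level in the control cells. Genes were binned by mean control level, a measure of probe brightness that depends on the probe as well as the RNA. Between -2 and 0, 40 of 78 Zfp genes were lower and 6 higher, with a median change of -0.33, against a median of -0.08 for the 2160 genes of all kinds in that bin. Between -4 and -2 the Zfp median was -0.40, with 15 of 34 lower and 3 higher, whereas the median over all genes was 0.07 (-0.07 with no scaling, -0.12 with spike-in scaling and -0.15 with quantile normalization). Between 0 and 2 it was -0.20, with 33 of 96 lower and 1 higher, against -0.08 over all genes. At 2 and above it was -0.16, with 13 of 50 lower and 8 higher, against -0.01. In the dimmest bin, below -4, 5 of 11 Zfp genes were higher (45.5%, against 49.1% of all genes there) and 1 lower, with a median of 0.30 (-0.05 with quantile normalization) against 0.59 over all genes. Of those 5, 3 were Zfp647, Zfp612 and Zfp618, tested only through the PRF arrays.

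The share of all genes called lower was 21.4% between -2 and 0 and 11.5% between -4 and -2. The Zfp shares there were 51.3% and 44.1%. Between 0 and 2, 20.3% of all genes and 34.4% of Zfp genes were lower, and at 2 and above 10.9% and 26%. In the dimmest bin these shares were 3.06% and 9.09%. Of all genes, 25.6% were called higher between -4 and -2 and 13.6% between -2 and 0, against 8.82% and 7.69% of Zfp genes. Between 0 and 2 the shares higher were 7.83% and 1.04%, and at 2 and above 6.29% and 16%. Control level and change share the control arrays, so the level was also taken from 1 control array and the change from the other 2. The Zfp median then stayed below that of all genes in every bin except the dimmest one with the level from control array 2, at 0.55 against 0.53.

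**Figure D2:**
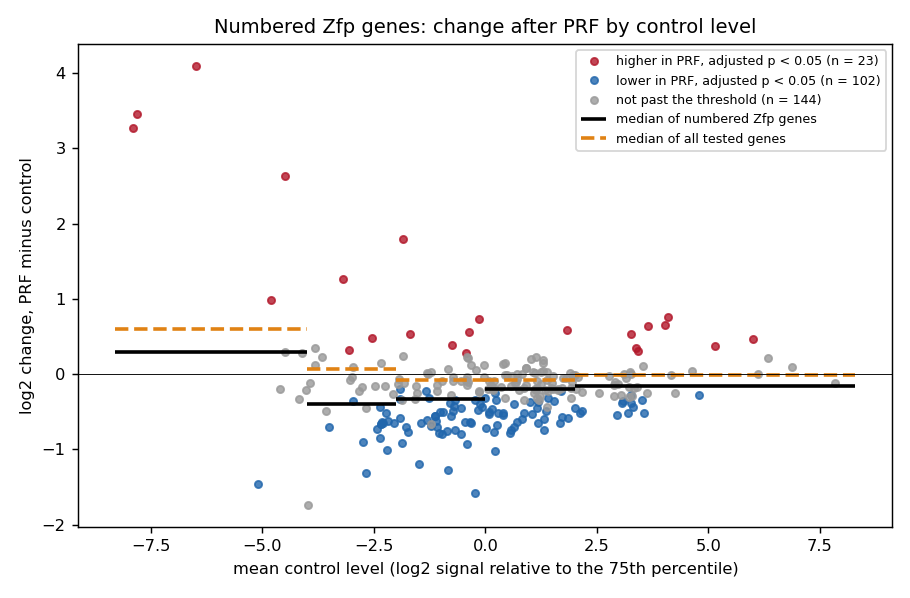
Log2 change (PRF minus control, vertical axis) against mean control level (log2 signal relative to the 75th percentile, horizontal axis) for the 269 tested Zfp genes, with lines at the median of the Zfp genes and of all tested genes in each bin of level. The Zfp median lies below the median of all genes in every bin, by most between -4 and -2, where the medians are -0.40 and 0.07.

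Zfp genes with a well-known role mostly did not pass the test. Of 32 listed for a role in activation, silencing, development, translation or chromosome biology, 29 were tested, of which 5 rose and 1 fell, with a median change of -0.02, where 16.4% of all tested genes were higher and 13.4% lower. Nothing is read from counts this small. Zfp281, a regulator of embryonic stem cell genes, rose by 0.58 (limma adjusted p = 0.00636). Zfp622, which takes part in maturation of the large ribosomal subunit, rose by 0.37 (limma adjusted p = 0.00658). Zfp367 rose by 0.34 (limma adjusted p = 0.0144) and Zfp384, a nuclear matrix factor known from bone cells, by 0.32 (limma adjusted p = 0.0252). The fifth was Zfp703. The calls of Zfp622, Zfp367 and Zfp384 did not hold with no scaling between arrays or with spike-in scaling, and that of Zfp384 was also lost without any 1 of 5 arrays.

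Zfp503, a developmental repressor known from the striatum, fell by 0.56 on the log2 scale (limma adjusted p = 0.00388). Zfp143, an activator that binds promoters, had levels of 0.49, 0.46 and 0.76 on the PRF arrays and 0.62, 0.58 and 0.58 on the control arrays, which overlap (change -0.02, limma adjusted p = 0.871). Zfp809, which silences retroviral DNA, gave -0.16 on its brighter probe (limma adjusted p = 0.141), while its other probe was lower, at -0.75 (limma adjusted p = 0.0121). Zfp445, which maintains imprints, passed on none of its 3 probes, the brightest of which gave -0.31 (limma adjusted p = 0.0611). Zfp568, a repressor of a placental Igf2 transcript, gave 0.08. Zfp598, a ubiquitin ligase that acts on collided ribosomes, gave 0.03 (limma adjusted p = 0.747).

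The proteins that KRAB zinc fingers work with were also measured. Of 38 listed partners and chromatin factors, 36 were tested, with 4 lower, 1 higher and a median change of 0.00. The shares of all tested genes were 13.4% lower and 16.4% higher, and nothing is read from these counts. Trim28, the corepressor that KRAB domains bind, had levels of 6.00, 6.02 and 6.01 on the PRF arrays and 5.97, 6.05 and 6.15 on the control arrays (change -0.05, limma adjusted p = 0.626). Setdb1, the histone methyltransferase it recruits, fell by 0.39 on the log2 scale (limma adjusted p = 0.0174), and its cofactor Atf7ip fell by 0.51 (limma adjusted p = 0.0169). Dnmt3b, a de novo DNA methyltransferase, fell by 0.97 (limma adjusted p = 9.36e-04). Smarcad1, a chromatin remodeller, fell by 0.34 (limma adjusted p = 0.0451). Resf1, a retroelement silencing factor, rose by 0.35 (limma adjusted p = 0.0408). The count of 4 dropped to 1 without control array 2, control array 3, PRF array 1 or PRF array 2, with Dnmt3b the gene that kept its call, and the call of Resf1 was lost in each of those 4 fits and without control array 1. Resf1 also missed the threshold with no scaling (0.21, limma adjusted p = 0.273), spike-in scaling (0.16, limma adjusted p = 0.261), median scaling, no filter and the replicate number as a block. Smarcad1 missed it with the array row or the replicate number as a block and with no filter (limma adjusted p = 0.0505 to 0.0921).

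Where a gene had several probes they often differed. Of the 96 Zfp genes with at least 2 tested probes, 57 had changes of 1 sign on all of them. All probes passed as lower in 15 genes and as higher in 2, and none passed in 36. In 40 genes some probes passed in 1 direction and the others did not, and in 3 genes probes passed in opposite directions. The median difference between the highest and the lowest probe of a gene was 0.22. Counted by probe, 129 of 386 were lower and 36 higher, where 12.6% and 18.5% of all probes were.

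Zfp764, whose human counterpart acts with the glucocorticoid receptor, had 1 probe up by 0.64 and another down, at -0.83 (limma adjusted p = 0.0054 and 0.00464). The brighter of its probes was the one that rose. Zfp444 had probes at -0.28 and 0.66 that both passed, and Zfp850, named after its values were seen, had probes at -0.26 and 0.54. Of 4 Zfp600 probes, 3 were higher, at 0.42, 0.48 and 1.43, and the other gave -0.44 without passing. Zfp651 had probes at -0.10 and 0.87, of which the dimmer rose, and Zfp866 had probes at -0.91, -0.34 and 0.03, of which the first fell. The files used here hold no probe sequences, so binding of a probe to RNA of a near-identical paralog was not tested, and single genes of these clusters are uncertain for that reason.

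Neighbouring Zfp genes were compared in 10 runs, each with at least 5 tested genes and no more than 3 other protein-coding genes between successive members in the RefSeq order. In the runs, 39 of 78 genes were lower and 3 higher, with a median change of -0.32. Outside them, 63 of 191 were lower and 20 higher, with a median of -0.20. The run with the lowest median was Zfp712 to Zfp459 on chromosome 13, where 8 of 10 tested genes were lower, none was higher, and the median was -0.72. The count was 7 with genes above background on all 6 arrays, which leaves out Zfp456. RefSeq lists several of its genes under Rslcan names, candidates for the regulators of sex-limited liver expression, and Zfp429 as Rsl2.

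In that run Zfp429 had levels of -2.12, -1.66 and -1.65 on the PRF arrays and -1.06, -1.09 and -0.95 on the control arrays, with no overlap and a change of -0.78. Zfp712 and Zfp458 both fell by 0.66 on the log2 scale, Zfp595 by 0.34 and Zfp457 by 0.25 on 1 of its 2 probes (0.03 on the other). With Zfp953, Zfp455 and Zfp456 above, these make up the 8. The other tested members, Zfp708 (-0.19) and Zfp759, did not pass. On the whole of chromosome 13, 18 of 25 Zfp genes were lower, against 20.3% of all genes tested there, and 10 of the 15 outside the run, Zfp493 among them, were lower.

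The run Zfp871 to Zfp563 on chromosome 17 had 6 of 8 genes lower and a median of -0.63. It holds Zfp799, Zfp563, Zfp763 and Zfp870, with Zfp472 at -0.48 and Zfp952 at -0.44, while Zfp871 (-0.18) and Zfp811 (0.29) did not pass. A second chromosome 17 run, Zfp948 to Zfp945, had 6 of 11 lower and a median of -0.35. Of all 29 Zfp genes of chromosome 17, 18 were lower, against 15.0% of all its tested genes. The other end of the order was the run Zfp990 to Zfp933 on chromosome 4, with 2 of 10 lower, 1 higher and a median of -0.08. Chromosome 7, which held 69 tested Zfp genes, had 23 lower (33.3%) and 8 higher, against 13.5% of all its tested genes lower.

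**Figure D3:**
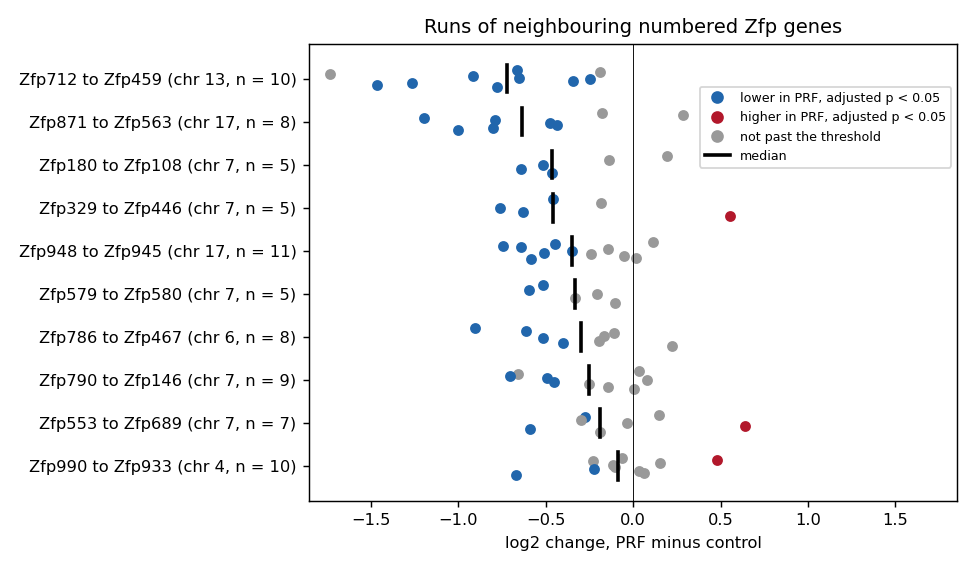
Log2 change (PRF minus control, horizontal axis) of each tested gene in 10 runs of neighbouring Zfp genes (rows, sorted by median), coloured by whether it passed the test, with a black bar at the median. Medians go from -0.72 in the chromosome 13 run at the top to -0.08 in the chromosome 4 run at the bottom, and only 3 genes of all runs passed as higher.

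Promoters from RefSeq (GRCm38.p6, 250 bases before to 50 bases after the gene start) were found for 266 Zfp genes, of which 226 were tested. Those of the Zfp genes lower in PRF cells had a median CpG observed over expected ratio of 0.58. It was 0.71 for Zfp genes higher and 0.66 for those that passed neither. Over all tested genes the order was the other way, with 0.73 for genes lower and 0.46 for genes higher. The median over the promoters of all tested genes was 0.73. Promoters were searched on both strands for short motifs. ACTACA, the core letters of the site known for human ZNF143, was in 34.1% of the promoters of lower genes, 5.56% of those of higher genes and 15.8% of the tested rest, against 10.6% of the promoters of all tested genes and 10.7% of all 27025 promoters. CCGGAA, the ETS core, was in 40.9% of those of lower genes, 22.2% of those of higher genes and 27.5% of the tested rest, against 25.3% of the promoters of all tested genes and 15.2% of all promoters. For both motifs the order of lower and higher genes was the same over all tested genes. There ACTACA was in 12.9% of the promoters of genes lower and 7.47% of genes higher, and CCGGAA in 27.6% and 14.8%. TATAAA was in 6.19% of the promoters of tested Zfp genes, 8.66% of those of all tested genes and 14.2% of all promoters. GGGCGG, the GC box, was in 48.7% of the promoters of tested Zfp genes, 58.8% of those of all tested genes and 35.9% of all. AAGATGGC, a YY1 motif, was in 6.19% of tested Zfp promoters, 4.27% of those of all tested genes and 2.88% of all. TGACTCA, the AP-1 motif, was in 3.98% of tested Zfp promoters, 3.96% of those of all tested genes and 5.17% of all.

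A longer form, ACTACA followed after any 2 bases by TCCC, was written after the ACTACA matches had been seen, and every match to it is also a match to ACTACA. It was in 37 of 266 Zfp promoters (13.9%), against 1.98% of all promoters and 3.96% of those of tested genes. Of its 41 matches, 31 lay on the strand opposite to the gene and 39 within 200 bases before the start, at a median of 65.5 bases before it. The stretches below show the matches of the chromosome 13 run, beside those of Zfp454 on chromosome 11 and Zfp189 on chromosome 4. Zfp759 and Zfp189 did not pass the test. Capitals mark the motif, and each is read 5′ to 3′ on the strand where it starts with ACTACA.
Zfp456, chr13:67375813-67375840, plus strand: tggtgcggACTACATCTCCCagaagtct
Zfp429, chr13:67399819-67399846, plus strand: cggtgcggACTACATCTCCCagaagtct
Zfp953, chr13:67360628-67360655, plus strand: gcatccggACTACATTTCCCacaaatca
Zfp759, chr13:67128168-67128195, minus strand: gggccgggACTACATTTCCCacaaatca
Zfp455, chr13:67194442-67194469, minus strand: ttgcttggACTACATATCCCagaagtct
Zfp712, chr13:67061207-67061234, plus strand: cggacgagACTACATTTCCCacaattct
Zfp458, chr13:67269153-67269180, plus strand: ttgttgggACTACATTTCCCacaagtca
Zfp595, chr13:67332592-67332619, plus strand: tggtagggACTACATTTCCCacaagtca
Zfp457, chr13:67306472-67306499, plus strand: gcgatgggACTACATTTCCCacaagtca
Zfp454, chr11:50887658-50887685, plus strand: tggccgaaACTACAATTCCCagaaggct
Zfp189, chr4:49521146-49521173, minus strand: gcaagcgaACTACATTTCCCggaatgca

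Zfp189 had a change of 0.06. In all, 9 of the 10 tested genes of the chromosome 13 run held the motif in the promoter (Zfp708, which did not pass the test, was the one without it), but none of the 7 in the Zfp871 run and none of the 11 in the Zfp948 run of chromosome 17 did.

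Tested Zfp genes with the motif had 23 of 33 lower, none higher and a median change of -0.62. Those without it had 65 of 193 lower, 18 higher and a median of -0.19. Outside the chromosome 13 run, 15 of 24 with the motif were lower, with a median of -0.48. These lower genes include Zfp748 (-0.77) and Zfp273 (-0.75), which lie near that run on chromosome 13. Among other tested genes, 84 of 439 with the motif were lower (19.1%), and 1447 of 11265 without it (12.8%), with medians of -0.06 and 0.00. Zfp genes with the motif were dimmer in control cells, with a median level of -0.68 against 0.44, and the part of that in the difference was not tested.

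The difference was seen on the arrays and within bins of level. The median level of Zfp genes with the motif was -1.40, -1.19 and -1.11 on the PRF arrays and -0.80, -0.54 and -0.61 on the control arrays. Without it, the median was 0.12, 0.11 and 0.25 on the PRF arrays and 0.45, 0.43 and 0.47 on the control arrays. Between control levels of -2 and 0, 11 of 14 with the motif were lower, against 23 of 50 without it. Between 0 and 2 these were 5 of 8 and 21 of 71. The count of 23 fell to 15 without control array 3, a fit in which the count without the motif fell from 65 to 37. The gap between the medians, -0.42, was -0.20 with normexp background correction.

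**Figure D4:**
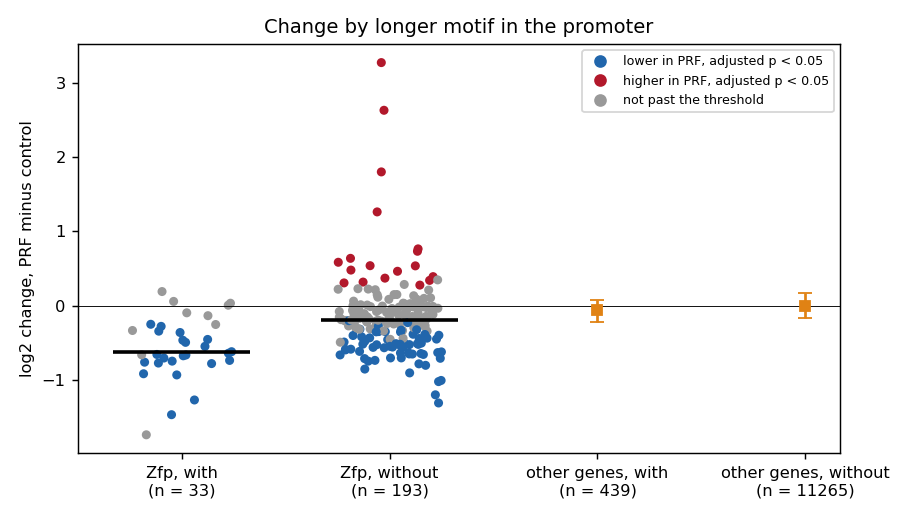
Log2 change (PRF minus control, vertical axis) of tested Zfp genes with and without the longer motif in the promoter, and of the other tested genes with and without it, as a point per Zfp gene with a bar at the median, and as the median with quartile bars for the other genes. Zfp genes with the motif have a median of -0.62 and Zfp genes without it -0.19, while the medians of other genes are -0.06 and 0.00.

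The 250 bases before the gene start of 3 genes show the contrast, read 5′ to 3′ along the gene's strand. In the Zfp953 promoter capitals mark the motif, here in reverse complement. The Zfp799 promoter is that of a gene that fell without a match, and the Zfp473 promoter that of a gene that rose without one.
Zfp953, chr13:67360573-67360822, minus strand: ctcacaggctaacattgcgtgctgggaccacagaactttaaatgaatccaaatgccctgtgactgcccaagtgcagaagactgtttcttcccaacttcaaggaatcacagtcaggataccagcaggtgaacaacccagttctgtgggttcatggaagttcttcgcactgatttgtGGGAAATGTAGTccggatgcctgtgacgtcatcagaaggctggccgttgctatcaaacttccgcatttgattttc
Zfp799, chr17:32830262-32830511, minus strand: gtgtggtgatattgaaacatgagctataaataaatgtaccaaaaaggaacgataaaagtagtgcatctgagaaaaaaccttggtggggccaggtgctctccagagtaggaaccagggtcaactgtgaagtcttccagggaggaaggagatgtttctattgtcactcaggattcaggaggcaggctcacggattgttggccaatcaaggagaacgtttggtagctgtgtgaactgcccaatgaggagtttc
Zfp473, chr7:44748618-44748867, minus strand: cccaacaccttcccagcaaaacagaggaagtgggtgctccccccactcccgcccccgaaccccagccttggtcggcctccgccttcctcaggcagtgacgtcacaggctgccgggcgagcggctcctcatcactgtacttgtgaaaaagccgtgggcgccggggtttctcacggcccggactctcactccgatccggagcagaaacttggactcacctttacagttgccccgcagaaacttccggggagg

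A match is a set of letters in these windows and says nothing about whether any factor binds there. The absence of a match says only that these letters are not in the window.

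The direction of the family did not depend on the scaling, but its size did. With no scaling 132 Zfp genes were lower and 14 higher, with a median of -0.35, while the median over all genes moved to -0.15. With spike-in scaling 172 were lower and 15 higher, with a median of -0.40 against -0.20 over all genes. Quantile normalization gave 113 lower and 22 higher, with a median of -0.25 against -0.05. The counts over all 15069 genes moved too. Under the 75th percentile 2023 of them were lower and 2466 higher, and with no scaling 3065 and 1634. With spike-in scaling 5256 were lower and 1794 higher, and with quantile normalization 2862 and 2117. The Zfp median was 0.20 below that of all genes (difference -0.20) under the 75th percentile, no scaling, median and spike-in settings alike, which move all genes by 1 amount per array.

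Arrays lay in 2 rows of the slide, and the median change of the Zfp genes was -0.23 within each row. Over all genes it was 0.01 in row 1 and -0.01 in row 2. Row 1 held 1 PRF and 2 control arrays, and row 2 held 2 PRF arrays and 1 control array. With 1 array in a group, nothing is read from the count of genes past the test in a single row. With the row as a block, 83 Zfp genes were lower and 21 higher, against 1346 and 2132 of all 15069 genes.

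**Figure D5:**
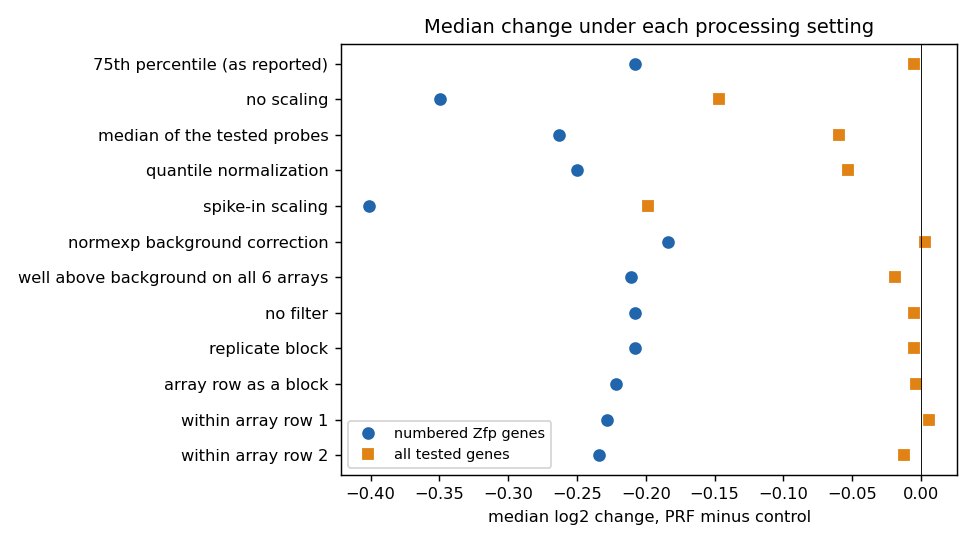
Median log2 change (PRF minus control, horizontal axis) of the numbered Zfp genes and of all tested genes under each scaling, background correction, filter and array row setting (one per line). The Zfp median is below 0 and below the median of all genes in each setting drawn, from -0.40 with spike-in scaling to -0.18 at its highest.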

How the data were processed

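Total RNA of 6 cultures (3 PRF, 3 control) was hybridised to one-colour Agilent arrays. The deposited intensity values are background-corrected processed signals written by version 10.7.3.1 of Agilent's Feature Extraction software (per the file headers), with no normalization between arrays. The authors' deposited series table holds intensity values too, and the same steps on it gave the same counts. Here spots of a probe were averaged, log2 was taken of the deposited signal and each array's 75th percentile was subtracted. Transcripts were named through RefSeq (GRCm38.p6). All probes above background on all 3 arrays of a group (34838) were fitted with limma 3.58.1 (R 4.3.3), lmFit and eBayes, without covariates, and p-values were adjusted by Benjamini-Hochberg. The fit was tested on simulated data with known answers. It recovered 30 of 100 probes changed 1.5-fold and 73 of 100 changed 2-fold, with 1 false call. Only those probes were changed among 34838 simulated, whereas in the data 18.5% of probes were called higher and 12.6% lower. The cut-off set by the adjustment depends on that share, so these recovery rates are not those of the fit reported here. A gene that did not pass may still have changed by such an amount.

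The family and all lists were chosen with earlier results of these data known. Genes named were the 14 strongest falls and 10 strongest rises past the test without overlap, the 5 brightest, a list with known roles, the 6 with the most discordant probes, and corepressors past the test. Replicate numbers were not treated as pairs. Other scalings, background correction, filters, array rows and leaving out arrays were tried. Grouping by protein domains was not done here, and the summed oligodendrocyte lineage markers are not reported here. Array number limits the precision.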

Additional observations from a re-analysis of the deposited data

How the results depend on the processing

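The fits that left out 1 array gave 60 to 109 numbered Zfp genes lower, 16 to 23 higher and a median change of -0.24 to -0.18. Over all 15069 genes those fits gave 975 to 1984 lower and 1846 to 2358 higher. With no scaling the Zfp count higher was 14 and the Zfp median -0.35. With spike-in scaling the Zfp counts were 15 higher and 172 lower, and the median was -0.40. Over all genes, no scaling gave 1634 higher, and spike-in scaling 1794 higher and 5256 lower. Row 1 alone gave 6 higher and 14 lower, and row 2 alone 0 of each, by limma's adjusted p, where 37 were lower and 14 higher at an unadjusted p below 0.05. Each row leaves 1 array in a group, so nothing is read from those row counts. Taking all tested probes in place of 1 per gene gave 36 higher. Same-numbered PRF and control arrays did not deviate together (correlations 0.14, -0.08 and 0.04), and not every array correlated best with its own number. The replicate number as a block gave 88 Zfp genes lower and 20 higher (1642 and 2220 over all genes), and that block changed no direction of a called gene. Of 1033 values of the 61 named genes under the alternatives, none reversed a call, 105 lost it and 38 gained one. The bounds of Zfp647, Zfp612, Zfp618 and Zfp456 rest on the detection level. Cross-binding of probes between paralogs was not tested. The fit to the authors' series table, and the motif, run and corepressor counts under each setting, were added after seeing the data.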
